A study of Mus musculus with 9 samples.

Results

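Lung macrophages collected 72 h after ozone were compared with lung macrophages collected 24 h after it, across every gene that passed a filter on low counts. The filter kept 15713 of 54281 genes, and the comparison rested on 6 of the 9 libraries of the series, 1 library per mouse. All mice were female, wild type and 12 weeks old, and came from Jackson Labs. The 6 mice compared had breathed ozone at 0.8 ppm for 3 h in a whole-body chamber. Of these, 3 were killed at 24 h and 3 at 72 h after the exposure, with ketamine and xylazine, and a further 3 mice breathed air. The air mice were killed at a time not given in the sources used here. Cells were washed out of the air spaces by bronchoalveolar lavage, during which the lungs were massaged, and red cells were lysed before RNA extraction. No sort for macrophages is described, so a library holds the RNA of every cell that the lavage released. The comparison sets the early phase of the response to ozone against the phase in which it resolves.

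Alveolar macrophages are long-lived phagocytes of the air spaces that clear surfactant, inhaled particles and dying cells, and that can divide in place. Ozone, an oxidant air pollutant, reacts with the lining fluid and injures the thin alveolar type 1 cells and the ciliated cells of the airways. In the days that follow, type 2 cells divide and spread to restore the lining, and macrophages accumulate around the injured sites. Macrophages present early after ozone are known for inflammatory mediators and those present later for clearance and repair.

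Levels are CPM, counts scaled to a common library size by the TMM method, and are given in the order of replicates 1, 2 and 3, with those of 24 h before those of 72 h. A change is the log2 fold change of 72 h over 24 h ± SE, so a negative value means a lower level at 72 h. Genes with an adjusted p under 0.05 by edgeR's quasi-likelihood test are referred to as called, and only these are said to have risen or fallen. Lists of genes by function or cell type were written with earlier results of these data known, and some members are named because of their values.

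The 6 ozone libraries held 47095448 to 53630031 counts, and the air libraries 51797625 to 60248252. Markers of resident alveolar macrophages dominated all 9, and Siglecf, the surface lectin that defines these cells in the mouse lung, was at 379, 231 and 332 CPM at 24 h and 382, 431 and 461 CPM at 72 h. Replicate 2 at 24 h and replicate 1 at 72 h stood apart. Summed B cell markers were 1787 and 1146 CPM in them and 158 to 202 CPM elsewhere. T cell markers were 1193 and 148 CPM against 8.51 to 34.4 CPM elsewhere, and serous cavity macrophage markers were 823 and 1062 CPM against 8.62 to 13.8 CPM. Recruited monocyte markers were 555 and 483 CPM against 65.9 to 112 CPM. Mitochondrially encoded RNA made up 5.25% and 6.18% of counts against 2.71% to 3.07%. The first principal component, with 54.2% of the variance, placed both at 80.4 or above and the other 7 at -0.459 or below, whereas the second, with 16.2%, separated the 3 libraries of 24 h (16.9 to 36.3) from the 3 of 72 h (-45.4 to -25.7). Air replicate 2, labelled female like the rest, held the X-inactivation RNA Xist at 2.42 CPM, whereas the other 8 held 887 to 1482 CPM. For red cells, summed erythroid genes reached 2995 CPM in 24 h replicate 2 and 2594 CPM in 72 h replicate 1. They were at 859 CPM in 24 h replicate 1 and 23.0 to 153 CPM in the other 6. None was called of the 8 tested with all libraries or the 7 tested without the pair (median -0.44, and -3.40 in the second, where 24 h replicate 1 remains). Values come from the fit with all 9 libraries unless said otherwise, and counts of calls are also given without 24 h replicate 2 and 72 h replicate 1, called the 2 libraries below. The common coefficient of biological variation was 0.312 with them and 0.113 without them. The libraries left in that second fit still differed between the times in these sums. T cell markers were at 12.0 and 12.4 CPM at 24 h and 25.1 and 34.4 CPM at 72 h. B cell markers were at 168 and 159 against 200 and 202 CPM, and recruited monocyte markers at 73.4 and 82.9 against 112 and 108 CPM. Interstitial macrophage markers went the other way, at 102 and 87.9 against 75.5 and 82.9 CPM. In RNA from mixed cells, fewer cells of a type and less RNA per cell cannot be told apart.

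More genes were lower at 72 h than were higher, and the lower ones differed by less. With all 9 libraries 2855 of 15713 genes were called, 847 higher at 72 h (5.39%) and 2008 lower (12.8%). The median change was 0.68 (1.60-fold) among the genes that rose and -0.38 (1.30-fold) among those that fell, against -0.03 over all genes tested. A change over 2-fold was seen in 259 of the genes that rose and in 35 of those that fell. All 3 libraries of 72 h stood above all 3 of 24 h for 2351 genes (15%) and below them for 3561 genes (22.7%). Without the 2 libraries 15753 genes were tested, of which 1038 were called higher (6.59%) and 1339 lower (8.5%), with medians of 0.80 and -0.40. The fits with and without them shared 1720 calls, 541 higher and 1179 lower, all in the same direction. These were 60.2% of the calls of the first fit and 72.5% of those of the second. The calls in each list below are to be read beside the shares of all genes, 5.39% higher and 12.8% lower with 9 libraries. Without the 2 libraries these shares were 6.59% and 8.5%.

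The number of calls changed with the library left out. Such a fit also has fewer libraries to test with, so the 2 effects cannot be told apart. Leaving out 72 h replicate 2 left 340 calls, 24 h replicate 1 1055, 72 h replicate 3 1284, 72 h replicate 1 1749, 24 h replicate 3 1795 and air replicate 2 1820. With each of the other 3 left out, 2226 to 2499 genes were called. Upper quartile scaling called 1163 genes higher and 1302 lower, so that 52.8% of its calls were lower, against 70.3% with TMM scaling. No gene called in both the fit of all 9 libraries and any of these alternatives changed direction between them. The fits share most or all of their libraries, which by itself favours the same direction, so no conclusion is drawn from this.

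**Figure D1:**
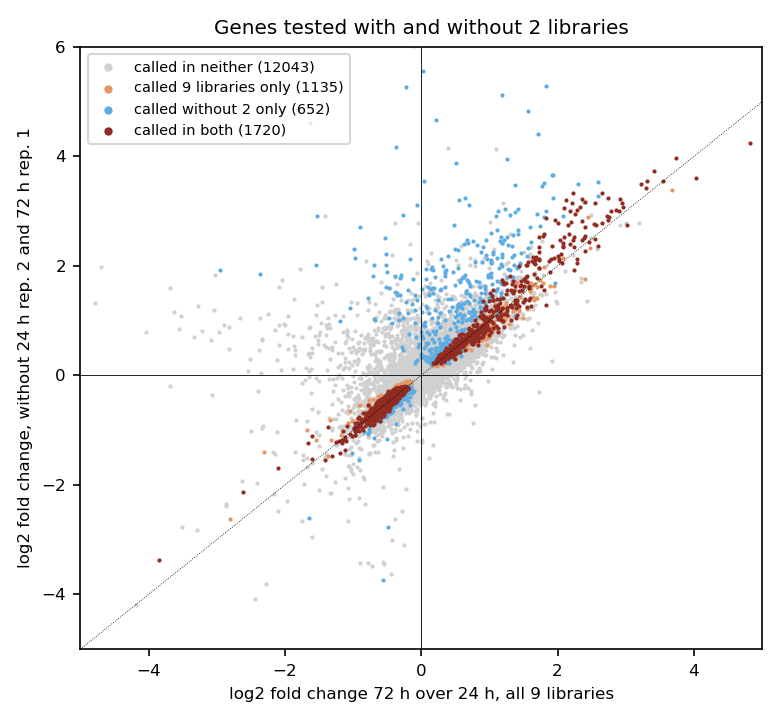
Log2 fold change of 72 h over 24 h for each gene tested in both fits, with all 9 libraries (x axis) and without 24 h replicate 2 and 72 h replicate 1 (y axis). Colours mark the 1720 genes called in both fits, the 1135 called with 9 libraries only, the 652 called without the 2 only and the 12043 called in neither; 34 genes lie outside the axes, and the dotted line marks equal values.

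Genes that fell had shorter transcripts than genes that rose. The median transcript length was 883 bases among the 2008 lower genes, 2019 bases among the 847 higher genes and 1462 bases among genes not called, with median GC contents of 51.1%, 47.3% and 50.0%. With genes ranked by length and split in 3 groups of equal size, 20.2% were called lower and 3.07% higher in the shortest group, and 5.52% and 8.12% in the longest. Without the 2 libraries these shares were 13.6% and 3.78% for the shortest group and 4.01% and 9.89% for the longest. A fit that removed a smooth trend with length and GC in each library called 798 genes higher and 1963 lower. Of these 2761 calls, 2167 were also calls of the main fit of 2855. Without the 2 libraries it called 963 and 1302, and 1485 of these 2265 were also calls of the main fit. Whether length or GC accounts for calls was not tested.

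**Figure D2:**
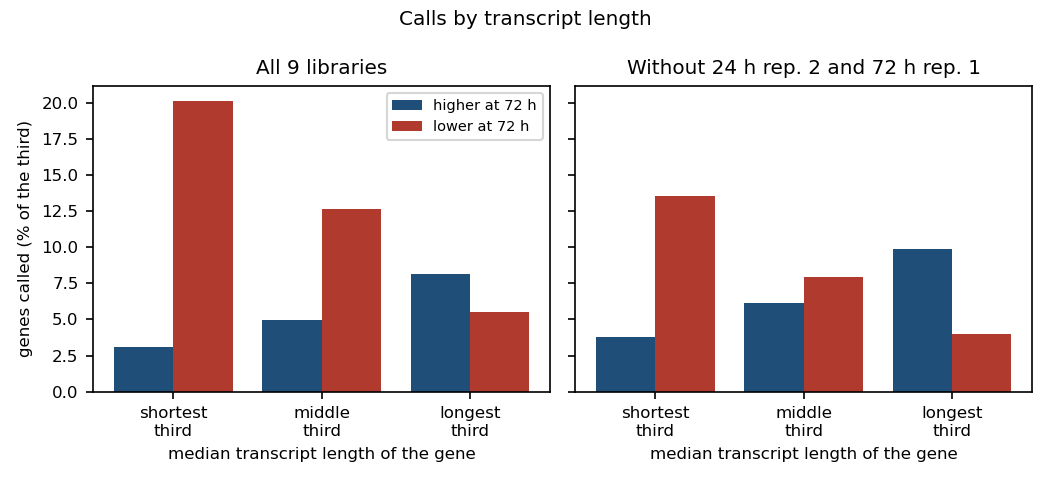
Percentage of tested genes called higher (blue) or lower (red) at 72 h than at 24 h in 3 groups of equal size ranked by median transcript length, with all 9 libraries (left) and without 24 h replicate 2 and 72 h replicate 1 (right). With all 9 libraries the share called lower goes from 20.2% in the shortest group to 5.52% in the longest, and the share called higher from 3.07% to 8.12%.

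Levels in air lay between the 2 ozone times for most called genes. This was so for 79.2% of the genes that rose and 85.8% of those that fell. The air mean was nearer to the 24 h mean for 66.1% and 68.6% of them, and for 77.3% and 64.8% without the 2 libraries. Called genes were chosen because the 2 ozone times differed, which by itself favours an air mean between them. These shares were not computed for genes that were not called, so no conclusion about air is drawn from them.

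**Figure D3:**
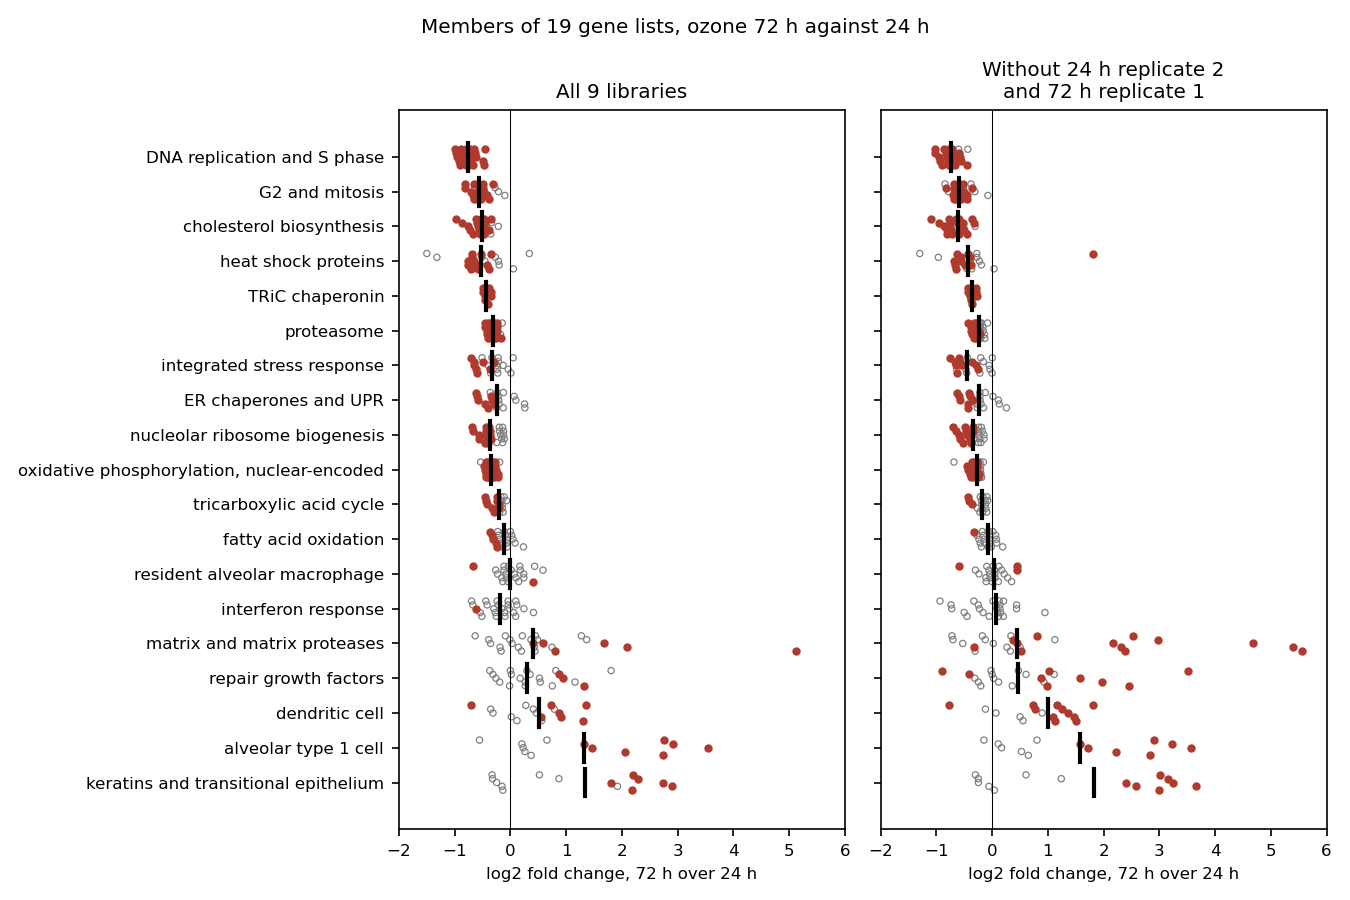
Log2 fold change of 72 h over 24 h for each tested member of 19 gene lists, with all 9 libraries (left) and without 24 h replicate 2 and 72 h replicate 1 (right). Filled red points were called, open grey points were not, and the black bar is the median of the list. The lists of replication, mitosis, cholesterol synthesis, chaperones, proteasome and the respiratory chain have medians from -0.76 to -0.24 on the left, and those of type 1 cells and keratins have medians of 1.32 and 1.34.

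All listed genes of DNA replication were lower at 72 h. The 26 members were called lower, against 12.8% of all genes tested, with a median of -0.76 and a range of -0.99 to -0.45. In all 26 the 3 libraries of 72 h lay below the 3 of 24 h, against 22.7% of all genes tested. Without the 2 libraries 24 were called and the median was -0.73; the other 2 were Orc6 (adjusted p = 0.0544) and Tk1 (adjusted p = 0.069). The summed level of the list was 1865, 2029.8 and 1783 CPM at 24 h, 1198, 1044 and 1139.5 CPM at 72 h and 1116, 1286 and 1490.2 CPM in air. Leaving out 72 h replicate 2 left 13 calls, and each other library left 22 to 26.

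Before a cell copies its DNA, the origin recognition complex with Cdc6 and Cdt1 loads the MCM helicase onto origins. Mcm2, a subunit of that helicase (ENSMUSG00000002870.8, GRCm38 chromosome 6, 88883474 to 88898780, minus strand), was at 89.9, 90.0 and 84.9 CPM at 24 h and 50.8, 40.5 and 44.3 CPM at 72 h. It fell by 1.95-fold (-0.97 ± 0.13, adjusted p = 0.00599). Air libraries stood at 43.1, 53.6 and 61.9 CPM. The 6 helicase genes Mcm2 to Mcm7 fell together, from -0.97 for Mcm2 to -0.72 for Mcm4. The loader Cdc6 was at 20.1, 22.1 and 19.6 CPM at 24 h and 12.1, 10.8 and 12.6 CPM at 72 h (-0.80 ± 0.10, adjusted p = 0.00541). Pcna, the sliding clamp that holds polymerases on DNA, was at 323, 354 and 312 CPM at 24 h and 193, 185 and 206 CPM at 72 h (-0.76 ± 0.09, adjusted p = 0.00406). Neither gene had overlapping groups, and 72 h levels of Pcna were also below all 3 air libraries (232, 248 and 278 CPM). Pola1, the catalytic subunit of the polymerase that starts new strands, went from 46.0, 45.6 and 44.0 to 29.0, 27.0 and 32.1 CPM (-0.62 ± 0.07, adjusted p = 0.00433). Mcm2, Cdc6, Pcna and Pola1 kept their calls whichever of the 9 libraries was left out. Uhrf1, which carries DNA methylation over to the new strand, showed the largest change of the list (-0.99 ± 0.15, adjusted p = 0.00756) and lost its call without 72 h replicate 2 (adjusted p = 0.0512).

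Many replication genes are known targets of E2F transcription factors, so the 250 bases before their RefSeq starts were searched for 4 forms of the E2F site, TTTCCCGC, TTTCGCGC, TTTGCCGC and TTTGGCGC, on both strands. Of the 22 replication genes with a RefSeq promoter, 8 held a match (36.4%): Mcm5, Mcm6, Mcm7, Cdc6, Orc1, Pola1, Rfc3 and Uhrf1. A match was found in 109 of 1613 genes called lower (6.76%), 22 of 543 genes called higher (4.05%), 411 of 10760 genes tested (3.82%) and 611 of all 32851 windows (1.86%). The windows of Pola1, Cdc6 and Mcm6 are shown because these are the genes with the smallest p among the 8. They are RefSeq sequence of GRCm38.p6, printed 5′ to 3′ on the strand of the gene and ending at the base before the start, with the matches in capitals:
Pola1 (chrX:93632156-93632405, minus strand): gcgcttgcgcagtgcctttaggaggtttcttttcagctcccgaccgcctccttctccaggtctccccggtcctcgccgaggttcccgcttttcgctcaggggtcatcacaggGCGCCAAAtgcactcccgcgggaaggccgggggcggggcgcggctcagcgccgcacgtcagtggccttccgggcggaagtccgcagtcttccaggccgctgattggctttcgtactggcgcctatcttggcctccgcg
Cdc6 (chr11:98907901-98908150, plus strand): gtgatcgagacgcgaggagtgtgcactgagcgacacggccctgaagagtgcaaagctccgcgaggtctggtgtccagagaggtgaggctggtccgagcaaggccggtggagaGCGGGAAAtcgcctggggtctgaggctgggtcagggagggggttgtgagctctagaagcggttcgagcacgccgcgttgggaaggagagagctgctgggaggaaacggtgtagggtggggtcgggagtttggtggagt
Mcm6 (chr1:128359706-128359955, minus strand): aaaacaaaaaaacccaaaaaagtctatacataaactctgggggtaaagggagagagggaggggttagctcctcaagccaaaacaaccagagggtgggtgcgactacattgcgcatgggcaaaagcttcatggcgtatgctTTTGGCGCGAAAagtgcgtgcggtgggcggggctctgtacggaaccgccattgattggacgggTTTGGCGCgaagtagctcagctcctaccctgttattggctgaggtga
The match of Pola1 and that of Cdc6 both begin 138 bases before the start, and Mcm6 has 3 matches, which begin 110, 106 and 47 bases before it, the first 2 overlapping. Mcm6 was at 163, 168 and 146 CPM at 24 h and 91.8, 76.5 and 87.3 CPM at 72 h. A match describes the letters of the window, and binding was not measured. In the G2 and mitosis list 1 of 20 windows held a match, that of Cdk1.

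The 12 genes with the largest falls with 9 libraries, by the rule for named genes, included Dut and Dctpp1, which act on nucleotides. Dut, which removes dUTP before it can enter DNA, was at 23.5, 32.3 and 21.8 CPM at 24 h and 12.8, 11.0 and 12.6 CPM at 72 h (-1.09 ± 0.18, adjusted p = 0.00795). Dctpp1, which hydrolyses modified dCTP, was at 18.8, 21.2 and 16.8 and 9.68, 9.09 and 10.2 CPM (-0.97 ± 0.12, adjusted p = 0.00477). In both, the lowest library of 24 h stood above the highest of 72 h, and 24 h replicate 2 was the highest of its group. Dctpp1 kept its call with each library left out, and Dut lost it without 72 h replicate 2 (adjusted p = 0.052). Rrm1, the large subunit of ribonucleotide reductase, fell by 1.59-fold, from 143, 147 and 135 to 93.9, 83.5 and 89.6 CPM. Nutf2, the carrier that returns the GTPase Ran to the nucleus, was at 7.13, 8.64 and 9.21 CPM at 24 h and 3.86, 2.65 and 2.83 CPM at 72 h, and fell by 2.67-fold (-1.42 ± 0.17, adjusted p = 0.00433). Its call held without the 2 libraries (-1.55) and with each library left out. Cdca7, a cofactor of chromatin remodelling in dividing cells, was at 19.3, 36.6 and 17.0 and 9.58, 8.78 and 9.87 CPM, with 24 h replicate 2 well above the rest of its group. Its call (adjusted p = 0.0184) was lost without each of the 72 h replicates 1, 2 and 3 (adjusted p = 0.0537, 0.088 and 0.0614). Chek1, the kinase of the replication checkpoint, was at 11.7, 10.9 and 9.99 CPM at 24 h and 5.97, 5.10 and 5.79 CPM at 72 h (-0.95 ± 0.14, adjusted p = 0.00728).

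Most listed mitotic genes fell too, with a smaller median than replication genes. Of 24 genes of G2 and mitosis 20 were called lower and none higher, with a median of -0.57, against 12.8% of all genes called lower. Without the 2 libraries 17 were called lower, with a median of -0.59, against 8.5%. All 24 had a negative change. Cdk1, the kinase that drives entry into mitosis, was at 39.4, 43.0 and 42.1 CPM at 24 h and 25.6, 21.3 and 23.7 CPM at 72 h (-0.82 ± 0.13, adjusted p = 0.00834). Top2a, which untangles sister chromosomes, was at 189, 199 and 199 and 134, 115 and 124 CPM (-0.66 ± 0.11, adjusted p = 0.00863). Tpx2, a spindle assembly factor, was at 58.1, 58.2 and 57.4 and 41.0, 37.2 and 38.0 CPM (-0.58 ± 0.08, adjusted p = 0.00632). The groups did not overlap in any of these genes, and 72 h levels lay in or just below the range of the air libraries (38.0, 45.4 and 47.3 CPM for Tpx2). The proliferation marker Mki67 was not called, at 278, 259.7 and 306 CPM at 24 h and 263, 228 and 236 CPM at 72 h (-0.21 ± 0.10, adjusted p = 0.163), nor were Plk1, Bub1b and Cenpf. Cdk1 and Top2a lost their calls without 72 h replicate 2 (adjusted p = 0.0536 and 0.0545), whereas Tpx2 kept its call with each library left out. Of the 20 calls 1 was left without 72 h replicate 2, 6 without 24 h replicate 1 or 72 h replicate 3, 8 without 24 h replicate 3 and 13 without air replicate 2.

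Fewer genes of the G1 machinery, which commits a cell to replication, changed. Of 20 genes 7 were called lower and none higher (median -0.35), against 12.8% and 5.39% of all genes. Without the 2 libraries 7 were lower, 5 of them the same, against 8.5%. With 9 libraries they were the cyclins Ccne1, Ccne2 and Ccnd3, the kinase Cdk4, the inhibitor Cdkn2c and the transcription factors E2f1 and E2f7. E2f1, the activator of S phase genes, was at 70.3, 69.1 and 75.2 CPM at 24 h and 51.1, 58.3 and 53.9 CPM at 72 h (-0.39 ± 0.06, adjusted p = 0.00795), below all air libraries as well (66.0, 70.1 and 70.7 CPM). It kept its call with each library left out. The 7 calls became 1 without 72 h replicate 2, 3 without 72 h replicate 3 and 4 without 24 h replicate 3.

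Genes of cholesterol synthesis were lower at 72 h from mevalonate to the last steps of the sterol ring. Cells make cholesterol from acetyl-CoA through mevalonate and squalene, and the transcription factor SREBP2 switches the enzymes on when membrane sterols run low. Of 23 tested genes 18 were called lower and none higher, with a median of -0.50, and 21 were called lower without the 2 libraries, with a median of -0.61. Fdps, which joins isoprene units into farnesyl pyrophosphate (GRCm38 chromosome 3, 89093588 to 89101959, minus strand), was at 107, 88.8 and 109 CPM at 24 h and 56.5, 44.1 and 55.5 CPM at 72 h, 1.95-fold lower (-0.97 ± 0.17, adjusted p = 0.01). Idi1, the isomerase before it, was at 144, 111 and 127 and 71.4, 61.0 and 76.6 CPM (-0.87 ± 0.15, adjusted p = 0.0095). Pmvk, the phosphomevalonate kinase, was at 42.1, 39.6 and 43.4 and 26.4, 26.3 and 29.4 CPM (-0.61 ± 0.08, adjusted p = 0.00541). The groups were apart in all 3 genes, with 24 h replicate 2 the lowest of its group in each. Pmvk and the sterol isomerase Ebp (-0.38 ± 0.05) kept their calls with each library left out, and Fdps and Idi1 lost theirs without 72 h replicate 2 (adjusted p = 0.0569 and 0.0579).

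Srebf2, the gene of SREBP2 itself, was at 171, 175 and 173 CPM at 24 h and 138, 111 and 113 CPM at 72 h (-0.52 ± 0.11, adjusted p = 0.0145). Hmgcs1, a synthase of the mevalonate pathway, was not called with 9 libraries (-0.44 ± 0.13, adjusted p = 0.0532) and was called without the 2 (-0.50, adjusted p = 0.033), as was Nsdhl, a dehydrogenase of the late steps. Srebf2 lost its call without 24 h replicate 1 or 72 h replicate 2 or 3. The 18 calls became 2 without 72 h replicate 2, 4 without 24 h replicate 1, 6 without 24 h replicate 3 or 72 h replicate 3, 10 without 72 h replicate 1 and 11 without air replicate 1. No member of this list with a RefSeq promoter held the sterol element TCACNCCAC (both strands) in the window searched except Hmgcs1, 1 of 16, against 1.05% of all windows.

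Enzymes that make or desaturate fatty acids fell at 3 genes, Fasn, Fads2 and Scd2. Fasn, the fatty acid synthase, was at 180.3, 139 and 168 CPM at 24 h and 127, 92.4 and 101 CPM at 72 h (-0.60 ± 0.14, adjusted p = 0.0202). Fads2, a desaturase, was at 6.41, 9.07 and 7.21 and 5.00, 2.52 and 3.73 CPM (-1.01 ± 0.28, adjusted p = 0.0403), and the desaturase Scd2 at 222, 197 and 208 and 168, 139 and 147 CPM (-0.46 ± 0.11, adjusted p = 0.0226). Among 22 genes of PPARgamma and lipid handling, which macrophages use to catabolise surfactant, these 3 and Fabp1 were called lower, against 12.8% of all genes, and the cholesterol exporter Abca1 was called higher (0.69, adjusted p = 0.0438). The call of Abca1 was lost with each library left out. The median of that list was 0.03, close to that of all genes, and without the 2 libraries these 4 and Elovl1 were lower and Fabp5 was higher. The calls of the 3 synthesis genes were lost in several fits with 1 library left out. Fasn and Scd2 lost their calls without 24 h replicate 1 or 3 or 72 h replicate 2 or 3, with adjusted p up to 0.0915 and 0.103, and Fads2 kept its call only without air replicate 2 or 72 h replicate 1.

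Most of the listed heat shock chaperones of the cytosol and mitochondria fell. Heat shock proteins fold client proteins, and HSP90 works with a set of cochaperones that hand clients over. Of 21 heat shock genes 12 were called lower and none higher, with a median of -0.53; without the 2 libraries 10 were lower and Hspb1 was higher. Hsp90aa1, the inducible form of HSP90 (GRCm38 chromosome 12, 110690605 to 110702728, minus strand), was at 386, 408 and 386 CPM at 24 h and 216, 223 and 255 CPM at 72 h, 1.70-fold lower (-0.77 ± 0.08, adjusted p = 0.00366). Fkbp4, an HSP90 cochaperone, was at 143, 152 and 155 and 84.6, 88.5 and 93.6 CPM (-0.76 ± 0.07, adjusted p = 0.00366), and Stip1, which bridges HSP70 and HSP90, at 125, 124 and 119 and 71.1, 72.6 and 82.5 CPM (-0.70 ± 0.06, adjusted p = 0.00366). All 3 had tight replicates within each time, and all 3 stood lower at 72 h than in air (272, 276 and 289 CPM for Hsp90aa1). Their calls held with each library left out. The mitochondrial chaperonin pair Hspd1 and Hspe1 fell as well (-0.61 ± 0.07 and -0.68 ± 0.10). The stress-induced forms Hspa1a and Hspa1b spread widely at 24 h, with Hspa1b at 1.64, 6.40 and 11.2 CPM, and were not called (adjusted p = 0.202 and 0.175); these neighbours are near-identical copies whose reads may be split between them. The list had 8 to 12 lower calls with 1 library left out, the fewest without 72 h replicate 2.

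**Figure D4:**
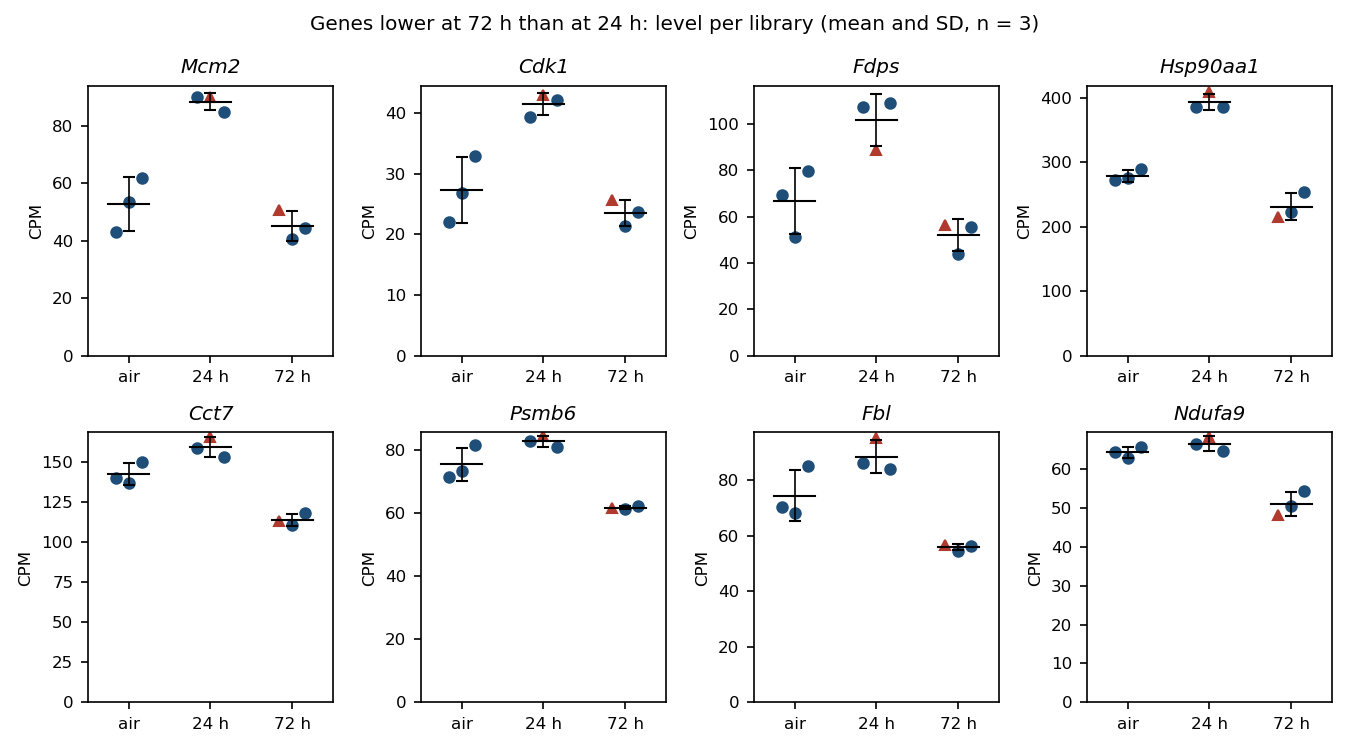
Level in CPM of 8 genes in each library of air, 24 h and 72 h, with the mean and SD of n = 3 mice. Red triangles mark 24 h replicate 2 and 72 h replicate 1 and blue circles the other libraries. In each gene the 3 libraries of 72 h lie below the 3 of 24 h, as for Hsp90aa1 with 216 to 255 CPM against 386 to 408 CPM.

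All 8 subunits of TRiC, the ring chaperonin that folds actin and tubulin, were called lower in both fits, with medians of -0.43 and -0.37. Cct7 was at 159, 166 and 153 CPM at 24 h and 113, 111 and 118 CPM at 72 h (-0.48 ± 0.06, adjusted p = 0.0052), and Cct5 at 249, 249.6 and 229 and 168, 174 and 187 CPM (-0.46 ± 0.07, adjusted p = 0.00669). The 8 genes changed by similar amounts, from -0.34 for Cct4 to -0.49 for Cct6a. Leaving out 72 h replicate 2 left 4 calls, and each other library 7 or 8.

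The proteasome, which degrades ubiquitin-tagged proteins, followed the same direction with smaller changes. Of 31 subunit genes 29 were called lower and none higher, with a median of -0.30, but 13 were lower without the 2 libraries, with a median of -0.23. Psmb6, a catalytic subunit of the core, was at 82.7, 84.4 and 81.0 CPM at 24 h and 61.6, 61.3 and 62.2 CPM at 72 h (-0.42 ± 0.06, adjusted p = 0.00595). Psmb5, the subunit with chymotrypsin-like activity, was at 86.8, 85.0 and 85.8 and 62.9, 63.0 and 63.0 CPM (-0.45 ± 0.07, adjusted p = 0.00695), and Psmc3, an ATPase of the cap, at 115, 123 and 111 and 85.8, 89.7 and 88.6 CPM (-0.40 ± 0.06, adjusted p = 0.00669). Psmb6 and Psmb5 hardly varied within a time. The 3 calls held with each library left out. The list as a whole had 4 calls without 72 h replicate 2 and 12 without 24 h replicate 1. It had 19 without 72 h replicate 1 and 19 with only the 6 ozone libraries in the fit.

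Serine and one-carbon enzymes led the changes among genes of the integrated stress response, in which ATF4 raises amino acid synthesis and transport. Of 21 genes 8 were called lower and none higher (median -0.33), and 10 were lower without the 2 libraries (median -0.44). Mthfd2, the mitochondrial folate enzyme, was at 32.6, 30.1 and 32.8 CPM at 24 h and 20.4, 18.9 and 19.5 CPM at 72 h (-0.70 ± 0.08, adjusted p = 0.00379). Psat1, which makes phosphoserine, was at 31.0, 34.4 and 31.8 and 21.9, 20.1 and 21.2 CPM (-0.62 ± 0.08, adjusted p = 0.00602). Atf4 itself was at 117, 113 and 114 and 89.4, 87.6 and 89.7 CPM (-0.37 ± 0.05, adjusted p = 0.00609). In Mthfd2 and Atf4 the 24 h levels lay near those of air (27.5, 29.5 and 32.8 and 120.0, 125 and 131 CPM) and the 72 h levels below both. The 3 calls held with each library left out, and the list had 4 calls without 72 h replicate 2.

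Chaperones of the endoplasmic reticulum, which fold secreted and membrane proteins, gave 8 lower calls of 20 and none higher in each fit (median -0.24 in both). Manf, a secreted stress-induced factor, was at 101, 97.9 and 104 CPM at 24 h and 67.3, 62.2 and 67.7 CPM at 72 h (-0.62 ± 0.07, adjusted p = 0.00406). Sdf2l1 was at 65.9, 64.3 and 70.4 and 43.8, 45.4 and 43.2 CPM (-0.60 ± 0.06, adjusted p = 0.00374), and Creld2 at 39.8, 42.0 and 44.4 and 28.7, 28.6 and 26.8 CPM (-0.58 ± 0.08, adjusted p = 0.00669). Air levels of Manf (97.2, 83.9 and 96.1 CPM) were nearer to those of 24 h. Of these 8 calls 4 were left without 72 h replicate 2 and 5 without 24 h replicate 1, 24 h replicate 3 or 72 h replicate 1, and Manf, Sdf2l1 and Creld2 were kept in all of these fits.

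Ribosome assembly and splicing genes were lower in part. Of 24 nucleolar genes 14 were called lower (median -0.36), and 12 without the 2 libraries (median -0.33). Fbl, the methyltransferase that modifies ribosomal RNA, was at 86.2, 95.2 and 84.0 CPM at 24 h and 56.6, 54.7 and 56.4 CPM at 72 h (-0.66 ± 0.09, adjusted p = 0.00595), and Nop16 was at 42.1, 36.0 and 38.5 and 23.6, 22.8 and 25.8 CPM (-0.69 ± 0.09, adjusted p = 0.0052). Both kept their calls with each library left out. Of 27 genes of the spliceosome and its ribonucleoproteins 16 were lower and 1 higher (median -0.29), and 11 and 1 without the 2 libraries (median -0.23). The small nuclear ribonucleoproteins that form the spliceosome core supplied the 4 smallest p, as with Snrpa at 31.4, 32.7 and 31.3 CPM at 24 h and 22.4, 19.1 and 19.1 CPM at 72 h (-0.65 ± 0.09, adjusted p = 0.00599) and Snrpd2 at 44.6, 51.5 and 45.1 and 32.5, 31.2 and 32.5 CPM (-0.55 ± 0.08, adjusted p = 0.00669). Without 72 h replicate 2 the lists had 2 and 5 lower calls, without 24 h replicate 1 7 and 9, and without 72 h replicate 3 5 and 9.

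Nearly all listed nuclear genes of the respiratory chain fell, and the mitochondrially encoded ones were not called. Of 31 nuclear genes of oxidative phosphorylation 29 were called lower (median -0.34), against 12.8% of all genes. All 31 had the 3 libraries of 72 h below the 3 of 24 h, against 22.7% of all genes. Ndufa9, of complex I, was at 66.4, 68.2 and 64.4 CPM at 24 h and 48.0, 50.4 and 54.1 CPM at 72 h (-0.38 ± 0.06, adjusted p = 0.00669), and Ndufa4 at 105, 117 and 105 and 74.4, 80.8 and 83.8 CPM (-0.45 ± 0.07, adjusted p = 0.00728). For Ndufa9 the air libraries (64.2, 62.8 and 65.6 CPM) stood with those of 24 h. None of the 13 mitochondrially encoded genes was called (median 0.10); mt-Co1, a subunit of cytochrome oxidase, was at 8272, 14244 and 8142 CPM at 24 h and 17973, 8464 and 8689 CPM at 72 h, highest in the 2 libraries that stood apart. Without these 2 the nuclear list had 17 lower calls (median -0.27), and 9 when the trend with transcript length and GC was also removed. Leaving out 72 h replicate 2 left 2 calls, 24 h replicate 1 13 and 24 h replicate 3 18.

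Central carbon metabolism changed less. Of 17 genes of the tricarboxylic acid cycle 9 were called lower (median -0.20) and 3 without the 2 libraries (median -0.18), and of 19 glycolysis genes 8 (median -0.27) and 6 (median -0.22). Idh2, the mitochondrial isocitrate dehydrogenase that makes NADPH, was at 91.4, 93.9 and 85.5 CPM at 24 h and 62.9, 67.6 and 67.8 CPM at 72 h (-0.45 ± 0.06, adjusted p = 0.00523). Pgk1, a glycolytic kinase that makes ATP, was at 203, 223 and 203 and 138, 142 and 152 CPM (-0.54 ± 0.08, adjusted p = 0.00683), and Ldha, which makes lactate, at 557, 563 and 548 and 384, 413 and 440.2 CPM (-0.43 ± 0.08, adjusted p = 0.0095). Idh2 and Pgk1 held with each library left out, and Ldha lost its call without 72 h replicate 2 (adjusted p = 0.0561). The cycle had 5 calls with upper quartile scaling, 4 without the 2 libraries once the trend with length and GC was removed, 1 without 72 h replicate 2, 3 without 24 h replicate 1 and 4 without 72 h replicate 1. Glycolysis had 5 with that scaling or with DESeq2 size factors, 4 with only the 6 ozone libraries or with the trend removed, 5 without air replicate 2, 2 to 4 without any ozone library other than 24 h replicate 2, and 4 without air replicate 3. Of 20 genes of fatty acid oxidation 5 were lower (median -0.12), against 12.8% of all genes, and 1, Eci1, without the 2 libraries, against 8.5%, a share below that of all genes. The 5 calls became 2 with upper quartile scaling, 1 without 24 h replicate 1 or 72 h replicate 1, 2 to 3 without the other 24 h replicates and 0 without 72 h replicate 2. Eci1, an isomerase for unsaturated fatty acids, was at 22.4, 21.5 and 22.8 CPM at 24 h and 16.2, 17.3 and 18.1 CPM at 72 h (-0.37 ± 0.06, adjusted p = 0.00859).

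Some marker genes of alveolar type 1 cells rose severalfold, and others were not called. Type 1 cells are the flat cells across which gas exchanges, and their tight junctions, membrane proteins and channels mark them. Of 13 tested type 1 markers 7 were called higher in both fits, against 5.39% and 6.59% of all genes, with medians of 1.32 and 1.57. Cldn18, a tight junction protein of alveolar cells (ENSMUSG00000032473.13, GRCm38 chromosome 9, 99689461 to 99717267, minus strand), was at 1.28, 0.647 and 1.01 CPM at 24 h and 7.76, 12.3 and 14.4 CPM at 72 h. It rose by 11.7-fold (3.55 ± 0.35, adjusted p = 0.00372), and air libraries held 0.571, 0.981 and 0.965 CPM, as low as those of 24 h. Emp2, a membrane protein of type 1 cells, was at 1.54, 1.17 and 1.14 CPM at 24 h and 6.19, 9.38 and 10.3 CPM at 72 h (2.75 ± 0.22, adjusted p = 0.00315). Gprc5a, a receptor of the lung epithelium, was at 0.801, 0.709 and 0.906 and 4.20, 5.69 and 6.34 CPM (2.74 ± 0.21, adjusted p = 0.00315), and Clic5, a chloride channel protein, at 0.641, 0.626 and 0.400 and 2.99, 4.27 and 5.36 CPM (2.91 ± 0.28, adjusted p = 0.00366). In all 4 genes each 72 h library stood several-fold above each 24 h library, 72 h replicate 1 was the lowest of its group, and the call held with each library left out.

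The defining type 1 markers Ager, the receptor for glycation end products, and the water channel Aqp5 rose to lower levels. Ager was at 1.40, 1.75 and 1.45 CPM at 24 h and 3.46, 4.47 and 4.79 CPM at 72 h (1.46 ± 0.23, adjusted p = 0.00746), and Aqp5 at 0.581, 0.688 and 0.569 and 2.35, 2.26 and 3.04 CPM (2.05 ± 0.37, adjusted p = 0.00997). Pdpn, Hopx, Cav1, Rtkn2, Akap5 and Sema3e were not called, and several of these were as high in air as at 72 h, as with Sema3e, at 35.8, 42.8 and 43.1 CPM at 72 h against 42.7, 47.0 and 36.0 CPM in air. The whole list summed to 145, 121 and 160.4 CPM at 24 h and 172, 249 and 235 CPM at 72 h, with 182, 195 and 160.2 CPM in the air libraries. Whether the rise came from lining cells in the lavage was not tested. Without 72 h replicate 2 the list had 4 calls, those of Cldn18, Emp2, Gprc5a and Clic5, and Aqp5 also lost its call without 24 h replicate 1.

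Markers of type 2 cells, which secrete surfactant, were less clear. Of 14 tested 4 were called higher (median 0.46), and 3 without the 2 libraries (median 0.51), against 5.39% and 6.59% of all genes. Sftpd, a surfactant collectin, was at 1.08, 0.939 and 1.33 CPM at 24 h and 2.09, 2.61 and 2.75 CPM at 72 h (1.15 ± 0.27, adjusted p = 0.0223). Cxcl15, a chemokine of lung epithelium, was at 0.561, 0.292 and 0.548 and 1.19, 1.56 and 1.26 CPM (1.52 ± 0.32, adjusted p = 0.0164). Lamp3 and Muc1 were the other 2, and each kept its call in 1 of the 9 fits with a library left out. Sftpd and Cxcl15 lost theirs without 24 h replicate 1 or 72 h replicate 2 or 3. The surfactant protein Sftpc, which defines type 2 cells, was at 6.49, 3.96 and 7.44 CPM at 24 h and 6.61, 9.88 and 9.34 CPM at 72 h, so that the groups overlapped, and was not called (0.53 ± 0.30, adjusted p = 0.256). Summed levels were 243, 324 and 217 CPM at 24 h and 343, 271 and 271 CPM at 72 h, highest in the 2 libraries that stood apart. The 4 calls became 2 without each air or 24 h library in turn or with only the 6 ozone libraries, and 0 without 72 h replicate 2 or 72 h replicate 3.

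The keratins Krt7, Krt8 and Krt18 of simple epithelium rose as well. Krt8 marks the transitional cells through which type 2 cells pass as they become type 1 cells. The list of keratins and transitional epithelium also holds general epithelial genes such as Epcam and Cdh1. Of its 14 tested genes 6 were called higher, against 5.39% of all genes, with a median of 1.34. Without the 2 libraries 7 were, against 6.59%, with a median of 1.82. Krt8 (GRCm38 chromosome 15, 101996698 to 102004482, minus strand) was at 0.721, 2.71 and 0.822 CPM at 24 h and 6.03, 5.58 and 8.03 CPM at 72 h (2.21 ± 0.49, adjusted p = 0.02). Its partner Krt18 was at 0.661, 1.75 and 0.759 and 4.16, 4.69 and 6.67 CPM (2.29 ± 0.38, adjusted p = 0.00818), and Krt7 at 0.821, 1.13 and 0.864 and 3.96, 4.03 and 4.77 CPM (2.18 ± 0.23, adjusted p = 0.00374). In Krt8 and Krt18, 24 h replicate 2 stood above the other 2 libraries of its time and below all 3 of 72 h. Sprr1a, a squamous repair protein, was at 0.220, 0.104 and 0.148 and 0.637, 1.36 and 1.57 CPM (2.90 ± 0.47, adjusted p = 0.00798), and the integrin subunit Itgb6, which activates TGF-beta on injured epithelium, at 0.0400, 0.104 and 0.105 and 0.319, 0.589 and 0.795 CPM (2.74 ± 0.48, adjusted p = 0.00948). Krt19, Lgals3, Epcam and Cdh1, which the air libraries held at 89.7 CPM or more, were not called. Epcam, an adhesion molecule of epithelium, was at 134, 104 and 128 CPM at 24 h and 74.5, 110.4 and 107 CPM at 72 h.

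Clu, a secreted chaperone abundant in injured epithelium, showed how the 2 libraries bear on a gene. It was at 2.30, 13.6 and 1.33 CPM at 24 h and 20.1, 19.5 and 25.6 CPM at 72 h, with 0.689, 1.25 and 1.08 CPM in air. With all 9 libraries it was not called (1.92 ± 0.82, adjusted p = 0.153), with 24 h replicate 2 close to the 72 h level, and without the 2 it was called (3.65 ± 0.32, adjusted p = 0.00375). Krt7 and Krt18 kept their calls with each library left out. Krt8 lost its call without 24 h replicate 1 or 3 or 72 h replicate 2 or 3 (adjusted p up to 0.0714), Sprr1a without 72 h replicate 2 (adjusted p = 0.0545) and Itgb6 without 72 h replicate 2 or 3 (adjusted p = 0.0634 and 0.0522). The keratin list had 2 calls without 72 h replicate 2 and 3 without 72 h replicate 3. Ndnf, a secreted neurotrophic factor outside these lists, was at 0.821, 2.11 and 0.927 CPM at 24 h and 5.04, 7.53 and 7.93 CPM at 72 h (2.41 ± 0.39, adjusted p = 0.00795; 0.0517 without 72 h replicate 2). Of 11 airway epithelium markers none was called with 9 libraries (median -0.28) and Muc5b was lower without the 2, and the summed level of that list was 273, 332 and 244 CPM at 24 h and 225, 208 and 236 CPM at 72 h.

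**Figure D5:**
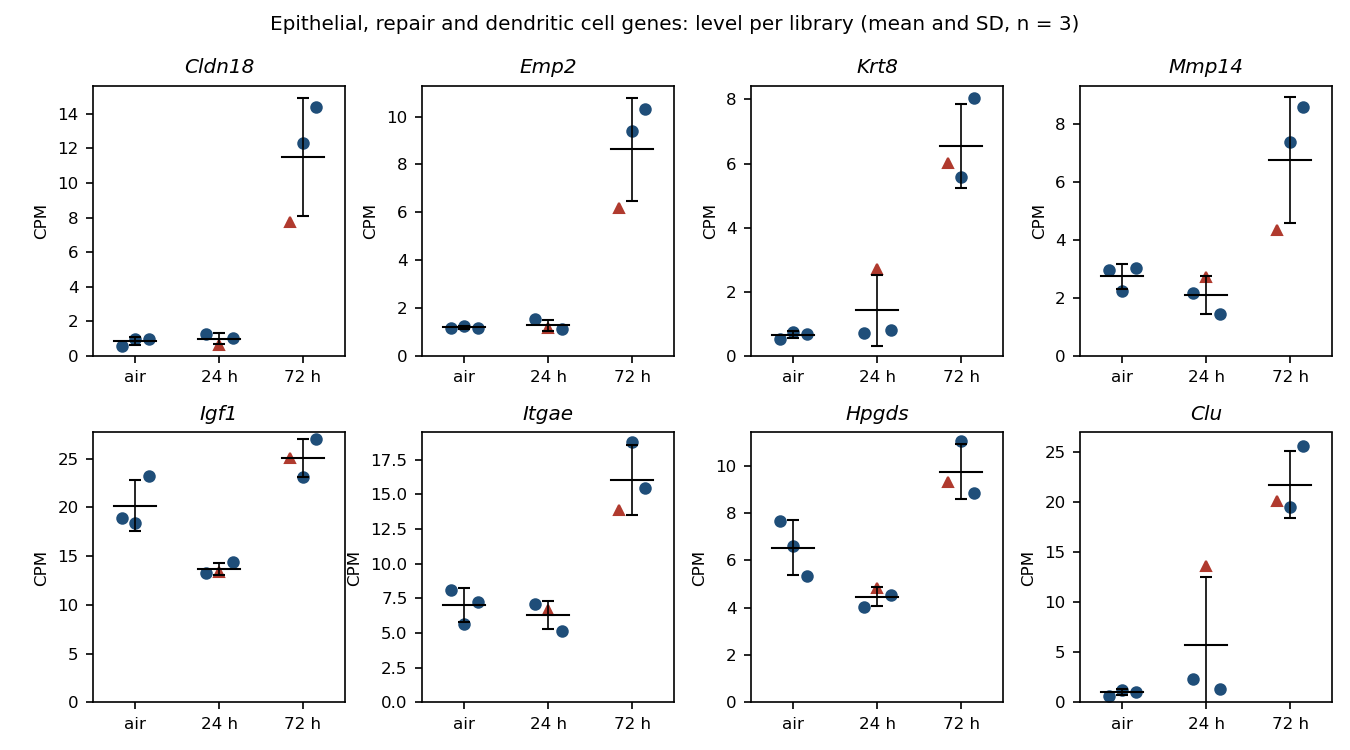
Level in CPM of 8 genes in each library of air, 24 h and 72 h, with the mean and SD of n = 3 mice. Red triangles mark 24 h replicate 2 and 72 h replicate 1 and blue circles the other libraries; the lower SD bar of Clu at 24 h runs below 0 and is cut there. In 7 genes the 3 libraries of 72 h lie well above the 3 of 24 h, and for Clu the triangle at 24 h (13.6 CPM) stands far above the other 2 libraries of that time.

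Matrix genes rose in part, and more of them without the 2 libraries. Macrophages and stromal cells lay down and cut a provisional matrix during repair. Of 25 tested genes of matrix and matrix proteases 6 were called higher and none lower (median 0.40), against 5.39% and 12.8% of all genes. Without the 2 libraries 12 were higher and 1, Spp1, lower (median 0.45), against 6.59% and 8.5%. Mmp14, the membrane-bound collagenase, was at 2.18, 2.73 and 1.43 CPM at 24 h and 4.36, 7.38 and 8.58 CPM at 72 h (1.68 ± 0.31, adjusted p = 0.0103). Fn1, fibronectin (GRCm38 chromosome 1, 71585520 to 71653200, minus strand), was at 1896, 2483 and 1749 CPM at 24 h and 4405, 2986 and 3323 CPM at 72 h (0.81 ± 0.20, adjusted p = 0.0263), with 1899.7, 1348 and 1717 CPM in air. Col4a1, of the basement membrane, was at 0.701, 1.42 and 0.927 and 3.76, 4.29 and 4.99 CPM (2.10 ± 0.35, adjusted p = 0.0082). None of the 3 had overlapping groups, and for Fn1 the libraries that stood apart were the highest of each time. Tnc, tenascin C, was nearly absent at 24 h (0.0801, 0.0417 and 0 CPM) and was at 0.936, 1.29 and 2.32 CPM at 72 h; its call was lost without air replicate 2, 24 h replicate 1 or 72 h replicate 2 or 3.

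The interstitial collagens Col1a1 and Col3a1, like Clu, were called only without the 2 libraries. Unlike in Clu, their 24 h replicate 2 stood above every 72 h library. Col1a1 was at 0.0601, 4.13 and 0.0632 CPM at 24 h and 1.73, 1.44 and 1.77 CPM at 72 h, so that its only high 24 h library was replicate 2, and it was called without the 2 libraries (adjusted p = 0.00436) and not with them (adjusted p = 0.939). Col3a1 was at 0.0400, 5.74 and 0.0211 and 2.87, 1.49 and 1.57 CPM, with adjusted p = 0.00305 and 0.993. Sparc, which binds collagen, was at 0.581, 3.61 and 0.422 and 4.10, 3.48 and 4.34 CPM (adjusted p = 0.002 and 0.233). Thbs1, thrombospondin, was at 2.42, 105 and 2.66 and 129.9, 11.5 and 13.4 CPM (2.31 without the 2 libraries, adjusted p = 0.00641; 0.49 with them, adjusted p = 0.873). Of 8 endothelial and fibroblast markers, 5 of them such matrix or receptor genes of fibroblasts, 1 was called higher with 9 libraries (Vwf) and 6 without the 2, and whether stromal cells in the lavage supplied these reads was not tested. Vwf kept its call only without 24 h replicate 2 or 3. Fn1 lost its call without 24 h replicate 1 or 3 or any 72 h library (adjusted p up to 0.0886), and Mmp14 and Col4a1 without 72 h replicate 2 (adjusted p = 0.0603 and 0.0517). The 6 calls of the list became 0 without 72 h replicate 2, 2 without 24 h replicate 1 or 72 h replicate 3 and 3 without air replicate 2 or 24 h replicate 3 or with only the 6 ozone libraries.

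Growth factors of repair rose at 3 of 21 tested genes, Igf1, Hgf and Vegfa, and none fell (median 0.30), against 5.39% of all genes called higher. Igf1, insulin-like growth factor 1, which macrophages secrete during repair (GRCm38 chromosome 10, 87858265 to 87937042, plus strand), was at 13.2, 13.4 and 14.4 CPM at 24 h and 25.1, 23.1 and 27.0 CPM at 72 h (0.88 ± 0.10, adjusted p = 0.00433). The 3 values of 24 h lay close together, below all air libraries (18.9, 18.4 and 23.2 CPM), and the call held with each library left out. Hgf, a mitogen of type 2 cells, was at 12.6, 9.30 and 13.5 and 17.6, 26.3 and 24.6 CPM (0.95 ± 0.22, adjusted p = 0.0222), and Vegfa, the vascular growth factor, at 0.581, 0.647 and 0.316 and 1.21, 1.23 and 1.41 CPM (1.32 ± 0.28, adjusted p = 0.0166). Without the 2 libraries 7 were higher, with Tgfb2, Tgfb3, Pdgfa and Bmp1 added, and Tgfb1 and Osm were lower. Tgfb1, the form that macrophages make most of, was at 253, 200.4 and 230.2 CPM at 24 h and 191, 178 and 182 CPM at 72 h (-0.40 without the 2 libraries, adjusted p = 0.0326). Without 24 h replicate 2 alone 6 were higher, and without 24 h replicate 1, 72 h replicate 2 or 72 h replicate 3 only 1, Igf1. Hgf also lost its call without air replicate 2 or 24 h replicate 2.

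Genes of dendritic cells, which carry antigen from the air spaces to lymph nodes, were higher at 72 h in part. Of 16 tested 6 were called higher and 1 lower (median 0.51), against 5.39% and 12.8% of all genes, and without the 2 libraries 10 higher and 1 lower (median 1.00), against 6.59% and 8.5%. Itgae, the CD103 integrin of conventional type 1 dendritic cells and also of resident T cells (GRCm38 chromosome 11, 73090583 to 73147446, plus strand), was at 7.09, 6.63 and 5.16 CPM at 24 h and 13.9, 18.8 and 15.5 CPM at 72 h (1.35 ± 0.18, adjusted p = 0.00595). Flt3, the receptor on which these cells depend, was at 4.02, 6.42 and 2.49 and 9.24, 11.7 and 10.9 CPM (1.30 ± 0.30, adjusted p = 0.0225), and Zbtb46, their defining transcription factor, at 2.74, 3.40 and 2.95 and 4.60, 5.81 and 6.16 CPM (0.87 ± 0.19, adjusted p = 0.0171). The groups did not overlap in these 3 genes, and air levels lay with those of 24 h. Ccr7, which guides migrating dendritic cells, was at 16.3, 39.0 and 11.4 CPM at 24 h and 33.8, 31.4 and 33.3 CPM at 72 h, and was called without the 2 libraries only (adjusted p = 0.0163 and 0.405 with them). Batf3, a transcription factor of the same lineage, was the member that fell (-0.71 ± 0.17, adjusted p = 0.0239), from 9.83, 9.24 and 8.33 to 6.29, 5.69 and 4.81 CPM. The list summed to 287, 347 and 246 CPM at 24 h and 369, 395 and 389 CPM at 72 h. Itgae kept its call with each library left out, and without 24 h replicate 1, 72 h replicate 2 or 72 h replicate 3 it was the only higher call of the list. Batf3 lost its call without the same 3 libraries in turn, and Zbtb46 also without 24 h replicate 3. With only the 6 ozone libraries in the fit 2 members were called higher.

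Il12b, the p40 chain of interleukins 12 and 23, was at 3.18, 2.48 and 1.26 CPM at 24 h and 3.68, 8.50 and 9.64 CPM at 72 h (1.65 ± 0.43, adjusted p = 0.0327). The 72 h replicate 1 value lay just above the highest of 24 h, and the call held in 1 of the 9 fits with a library left out, that without 72 h replicate 1 (adjusted p up to 0.127 in the others). Cxcl16, a membrane-bound chemokine and scavenger receptor of macrophages and dendritic cells, was at 12.8, 12.2 and 9.63 and 17.1, 23.4 and 24.3 CPM (0.90 ± 0.17, adjusted p = 0.0123; lost without 72 h replicate 2 or 3). Cxcl10, an interferon-induced chemokine for T cells, was at 2.76, 1.96 and 2.00 and 1.02, 0.846 and 0.836 CPM and fell by 2.49-fold (-1.32 ± 0.23, adjusted p = 0.00988; lost without 72 h replicate 2). These were the 2 called genes of 24 chemokines and receptors, and without the 2 libraries Ccl5 and Ccr7 were called higher as well. Of 24 interferon response genes Bst2 alone was called, lower (-0.61 ± 0.18, adjusted p = 0.0492), against 12.8% of all genes. None was called without the 2 libraries, where the median was 0.08 against -0.18 with them. The call of Bst2 was lost in 7 of the 9 fits with a library left out.

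Of 16 eicosanoid genes 2 were called higher and 1 lower, and 2 and 2 without the 2 libraries, with Pla2g15 added. Hpgds, the prostaglandin D2 synthase of macrophages and mast cells, was at 4.02, 4.84 and 4.55 CPM at 24 h and 9.34, 11.1 and 8.85 CPM at 72 h, with 7.66, 6.60 and 5.36 CPM in air, and rose by 2.18-fold (1.12 ± 0.16, adjusted p = 0.00612). Ptges3, a prostaglandin E synthase that is also an HSP90 cochaperone, was at 182, 173 and 169.7 and 102, 116 and 127 CPM (-0.61 ± 0.08, adjusted p = 0.00599). Both kept their calls with each library left out. Ptgs2, the inducible cyclooxygenase, stayed under 1 CPM throughout, at 0.140, 0.355 and 0.0632 and 0.498, 0.791 and 0.714 CPM, and was called higher (adjusted p = 0.0429), a call that held in 1 of the 9 fits with a library left out, that without 24 h replicate 2.

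Receptors of neutrophils and of clearance changed at few genes. Cxcr2, the receptor by which neutrophils follow chemokines, was at 8.81, 9.18 and 7.88 CPM at 24 h and 15.0, 11.8 and 14.8 CPM at 72 h, with 6.28, 5.43 and 5.82 CPM in air (0.69 ± 0.12, adjusted p = 0.00923), and kept its call with each library left out. The summed neutrophil markers were 123, 248 and 128 CPM at 24 h and 243, 155 and 169 CPM at 72 h, and of 13 tested 2 were called higher, Cxcr2 and Mmp8. When the 2 libraries were left out, 3 of 12 were higher, with the receptor Csf3r added, and 2 lower, the granule proteins Ngp and Lcn2 (median -0.45). Mmp8 lost its call with each library left out. Retnlg, a secreted marker of neutrophils, was near 0 outside the 2 libraries, at 0.320, 5.26 and 0.358 CPM at 24 h and 3.40, 0.0368 and 0.0204 CPM at 72 h. Among 24 efferocytosis genes, by which dying cells are engulfed, Cd300lf alone was called with 9 libraries, a call kept only without air replicate 1, and 6 were higher and 1, Scarb1, lower without the 2. Among 18 complement genes C3 was called higher, against 5.39% of all genes. C3 was at 273, 329 and 249 CPM at 24 h and 409, 428 and 435 CPM at 72 h (0.58 ± 0.15, adjusted p = 0.0298), a call lost without air replicate 1, 24 h replicates 1 or 3 or any 72 h library. The opsonin C1qb was at 3.12, 80.0 and 2.47 and 78.6, 4.84 and 5.40 CPM, called without the 2 libraries only (0.89, adjusted p = 0.0286).

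Few identity genes of resident alveolar macrophages were called. Of 22 markers 1 was called higher, the protease Ctsk, and 1 lower, the fatty acid binding protein Fabp1, against 5.39% and 12.8% of all genes. The median was -0.01 with TMM scaling and 0.05 with upper quartile scaling, and changes ranged from -0.66 to 0.59. Both calls were also made without the 2 libraries, where Siglec1 was called higher as well. Fabp1 was at 156, 137 and 136 CPM at 24 h and 80.5, 94.1 and 96.5 CPM at 72 h (-0.66 ± 0.13, adjusted p = 0.0139), with 158, 216 and 158 CPM in air. Its call was lost without 24 h replicate 1 or 72 h replicate 2, and that of Ctsk held only without 72 h replicate 1. Siglecf (0.44 ± 0.17, adjusted p = 0.113), the scavenger receptor Marco (-0.26 ± 0.10, adjusted p = 0.0987), the mannose receptor Mrc1 (0.18 ± 0.17, adjusted p = 0.525) and the master regulator Pparg (-0.11 ± 0.09, adjusted p = 0.425) were not called. Marco was at 427, 418 and 401 CPM at 24 h and 376, 319 and 345 CPM at 72 h, apart between the times but within 1.5-fold. The chitinase-like protein Chil3 was at 18861, 14809 and 21678 and 17886, 21115 and 20390.5 CPM, and no gene of 17 for alternative activation was called with 9 libraries; without the 2 Tgfb1 was called lower.

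Inflammatory genes were not called in most cases. Il1b, the inflammatory cytokine, was at 19.5, 17.9 and 18.1 CPM at 24 h and 10.4, 21.4 and 19.3 CPM at 72 h (adjusted p = 0.851), and Tnf at 10.1, 6.59 and 12.4 and 8.48, 6.97 and 5.69 CPM (adjusted p = 0.573). Of 20 genes of this list Il12b and Ptgs2 were called higher, in both fits, against 5.39% and 6.59% of all genes. Spp1, osteopontin, which marks macrophages in injured and fibrotic lung, was at 492, 395 and 484 CPM at 24 h and 299.8, 360.1 and 413 CPM at 72 h, with 314, 292 and 302 CPM in air. It was not called with 9 libraries (-0.35 ± 0.13, adjusted p = 0.0858) and was called lower without the 2 (-0.32, adjusted p = 0.0352). Among 22 targets of NRF2, the regulator of antioxidant defence, 3 were called lower, Tkt, Taldo1 and Txn1, a share close to the 12.8% of all genes. Thioredoxin, encoded by Txn1, was at 376, 361 and 345 CPM at 24 h and 262, 282 and 309 CPM at 72 h (-0.34 ± 0.08, adjusted p = 0.0213), and without the 2 libraries 1 of the 3 was called, Tkt. Txn1 and Tkt lost their calls without 24 h replicate 1 or 3 or 72 h replicate 2, Txn1 also without 72 h replicate 1, and Taldo1 with each library left out. The heme oxygenase Hmox1 was at 168, 142 and 166 and 118, 162 and 152 CPM and was not called (adjusted p = 0.455).

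Between the fits with and without the 2 libraries, 1135 genes were called in the first only and 652 in the second only. Nedd4, Lmo7 and Slc15a2 are examples of the second kind outside the lists. Nedd4, a ubiquitin ligase, was at 0.721, 33.0 and 0.759 CPM at 24 h and 17.5, 5.12 and 6.01 CPM at 72 h. The fitted change was -0.27 with 9 libraries (adjusted p = 0.925) and 2.93 without the 2 (adjusted p = 0.00104). Lmo7, a protein of epithelial junctions, was at 1.26, 10.4 and 1.35 and 12.5, 9.35 and 10.2 CPM, called without the 2 only (2.92, adjusted p = 0.000901; 0.297 with them). Slc15a2, a peptide transporter of lung epithelium and macrophages, was at 8.11, 6.11 and 7.06 and 4.38, 1.38 and 1.06 CPM, with 72 h replicate 1 nearest to 24 h, and was called lower without the 2 (-2.61, adjusted p = 0.00935; 0.0716 with them). Genes whose calls held in both fits and with each library left out included Zmynd15, at 2.02, 2.32 and 1.85 CPM at 24 h and 5.71, 7.54 and 7.32 CPM at 72 h (1.73 ± 0.15, adjusted p = 0.00366), and Npr1, a natriuretic peptide receptor, at 3.60, 3.40 and 2.70 and 6.37, 9.29 and 8.81 CPM (1.33 ± 0.19, adjusted p = 0.00669). Adam23, a membrane protein that binds integrins, was at 2.96, 4.55 and 2.02 CPM at 24 h and 8.06, 11.3 and 8.58 CPM at 72 h (1.55 ± 0.28, adjusted p = 0.00991; 0.0588 without 72 h replicate 2).

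Some of the genes with the largest falls had uncertain calls. Siva1, a pro-apoptotic protein, was at 15.4, 15.8 and 13.5 CPM at 24 h and 9.48, 6.86 and 6.44 CPM at 72 h (-0.97 ± 0.21, adjusted p = 0.0181), and lost its call without 24 h replicate 1, 72 h replicate 2 or 72 h replicate 3. Mthfd1l, a mitochondrial folate enzyme like Mthfd2, was at 10.1, 19.7 and 10.9 and 7.09, 4.58 and 4.57 CPM (-1.32 ± 0.38, adjusted p = 0.0478), and its call held in 1 of the 9 fits with a library left out. Xlr3b, one of a family of near-identical X-linked copies whose reads may be split among them, was at 8.23, 13.8 and 8.26 and 3.21, 2.72 and 4.49 CPM (adjusted p = 0.0455, and 0.208 without the 2 libraries). In all 3 genes 24 h replicate 2 was the highest library. Id1, an inhibitor of differentiation factors that responds to BMP signals, was at 14.6, 10.2 and 16.9 and 15.7, 7.84 and 6.05 CPM, and was called without the 2 libraries only (-1.15, adjusted p = 0.0174).

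The remaining lists held few calls, and over all genes 5.39% were called higher and 12.8% lower. Among 22 immediate early genes, which respond within minutes to stimulation, Jun and Zfp36 were called lower, and Ier2 and Zfp36 without the 2 libraries. Zfp36, which destabilises cytokine messages, was at 70.4, 72.3 and 85.4 CPM at 24 h and 62.7, 44.0 and 47.6 CPM at 72 h (-0.56 ± 0.16, adjusted p = 0.0447). Among 15 genes of MHC class II presentation H2-DMa, which loads peptides, was called lower (-0.29 ± 0.08, adjusted p = 0.0351). Of 24 lysosome genes Mcoln1, the lysosomal calcium channel, was called higher (0.31 ± 0.08, adjusted p = 0.0362), and of 21 pattern recognition genes the adaptor Myd88 was called lower (-0.26 ± 0.07, adjusted p = 0.0337). The biliverdin reductase Blvrb was the only called gene of 17 for iron handling (-0.48 ± 0.14, adjusted p = 0.0471). Of 17 p53 targets 3 were called lower, Aen, Bax and Gtse1. With either other scaling 0 were lower, and with upper quartile scaling 1 was higher. Of 14 eosinophil, basophil and mast cell markers 2 were tested, and Kit, the stem cell factor receptor, was at 2.94, 3.96 and 1.85 CPM at 24 h and 5.61, 5.67 and 5.71 CPM at 72 h (0.95 ± 0.25, adjusted p = 0.031). With the 2 libraries left out, the calls of Mcoln1, Myd88, Gtse1 and Kit were made as well, and those of H2-DMa, Blvrb, Aen and Bax were not; Cd40 of the class II list, Hp of the iron list and Trp53inp1 of the p53 list were called higher, and Tfeb of the lysosome list and Lcn2 and Steap3 of the iron list lower. All of these calls with 9 libraries lay close to the threshold, and each was lost in 7 or 8 of the 9 fits with a library left out.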

How the data were processed

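RNA of lavaged lung cells of 9 mice was sequenced after red cell lysis, with a stranded total RNA kit, per the labels' protocols. The authors deposited 1 table of estimated counts per gene and library. It was made with Trimmomatic 0.39, FastQC, Salmon and DESeq2 on GRCm38.p6, per the submitters' processing notes; other versions, the annotation and the use of strand in counting: not given in the sources used here. Reads of a gene that overlaps another on the other strand, or has a near-identical copy, are therefore uncertain. Such an overlap was found for 48.5% of the genes called higher, 41.6% of those called lower and 44.4% of the rest. GENCODE M21 supplied symbols and coordinates for 54107 of 54281 identifiers. 1 unnamed column without measurements was not used.

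The estimated counts were rounded and analysed in R 4.3.3. filterByExpr of edgeR 4.0.16 kept 15713 genes, TMM scaled the libraries, and all 9 entered 1 robust quasi-likelihood fit, tested as 72 h minus 24 h, with Benjamini-Hochberg adjustment over all genes. SE was computed from the log2 fold change and the F statistic, as the size of the former over the root of the latter. The fit was tested on simulated data with known changes. These counts were drawn independently for each gene, without the cell content that sets the 2 libraries apart. The simulation therefore cannot show how the fit handles that content. Totals of 47095448 to 60248252 counts leave genes below 1 CPM with few counts and wide errors. The labels give each library as a separate mouse. Chi-square per degree of freedom between replicates was 6.82 to 128, so none was a repeat deposit. Deviations of same-numbered libraries of 24 h and 72 h correlated at -0.54, -0.61 and 0.48. The 2 libraries that stood apart bear different numbers and correlated at 0.73. The same-numbered values therefore cannot show whether a number marks a shared batch. No block was used in the main fit, and a block was an alternative.

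Alternatives were DESeq2 1.42.0, limma 3.58.1 voom, other scalings and filters, the 6 ozone libraries alone, a fold threshold, the replicate number as a block and each library left out. A fit without the 2 libraries and air replicate 2, 1 on ozone libraries only without the 2, and an offset for length and GC were added after seeing the data. Named genes were the 12 with the largest change in each direction and fit among called genes of at least 5 CPM in the higher group without overlapping times, up to 4 called members per list with the smallest p, and a roster; further members are named to account for a count. All members and lists were chosen with earlier results of these data known. Some genes that this rule names are not reported here.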

Additional observations from a re-analysis of the deposited data

How the results depend on the processing

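Counts of calls moved with the settings. The 2855 calls (847 higher, 2008 lower) became 1696 (386 and 1310) without a filter on low counts and 227 (90 and 137) when a change over 1.2-fold was tested by edgeR's glmTreat. Upper quartile scaling called 1302 genes lower, the 6 ozone libraries alone 480 higher, and the length and GC offset without the 2 libraries 1302 lower. Without the 2 libraries, ozone libraries alone gave 1446 higher, and leaving out air replicate 2 as well gave 1618 calls, 904 of them lower. With 1 library left out there were 340 to 2499 calls, 56 to 998 higher and 284 to 1788 lower, the fewest without 72 h replicate 2. DESeq2 called 3563 genes and limma voom 2868. The cause was not tested.

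The replicate number as a block called 1474 genes, 352 higher and 1122 lower. Whether the numbers mark a shared batch is not known. The libraries that correlated best with each other were 24 h replicate 2 and 72 h replicate 1 (0.73), 24 h replicate 1 and 72 h replicate 2 (0.52) and the replicates 3 (0.48).

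Of 200 genes named in this report, some of them whatever their result, 131 were called with 9 libraries. Of these, 56 kept the call with each library left out, 75 lost it without 72 h replicate 2 and 49 without 24 h replicate 1. Among values called in at least one of the settings compared, the sign changed for Nedd4, -0.27 with 9 libraries, -1.05 without 72 h replicate 1 and 3.70 without 24 h replicate 2, 2.93 without the 2 libraries, 2.91 with the length and GC offset or with ozone libraries only and 2.92 without air replicate 2 as well, for Bax, -0.22 and 0.039 with that offset without the 2 libraries, for Hp, -0.70 with 9 libraries, 1.03 without the 2, 1.01 with ozone libraries only, 1.02 without air replicate 2 as well and 1.14 with the offset, against -1.43 to 1.75 with 1 library left out, and for Trp53inp1, -0.27 with 9 libraries, 0.46 without the 2, 0.44 and 0.45 in the same order and -0.55 to 0.46 with 1 library left out. Counting values called in neither setting, 23 of the named genes changed sign in some setting, among them Thbs1, C1qb and Retnlg.

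Depth limited genes of a few counts: below 3 counts over a group only a least fold is given, with a floor of 3 counts. With 3 libraries a time, and 2 without the 2 libraries, a call that fails the threshold does not show that a gene was unchanged.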

Other observations

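Of 18 tested clock genes, which cycle over the day, 2 were called with 9 libraries, both lower at 72 h, and both lost the call in 7 or 8 of the 9 fits with a library left out. Cry2, a repressor of the clock, was at 9.23, 13.2 and 9.67 CPM at 24 h, 5.14, 5.26 and 4.93 CPM at 72 h and 5.06, 10.8 and 8.22 CPM in air (-1.07 ± 0.26, adjusted p = 0.0255, 0.0997 without the 2 libraries). Tef, a transcription factor of the clock's output, was at 82.7, 91.8 and 95.0 CPM at 24 h, 44.1, 52.8 and 44.0 CPM at 72 h and 31.0, 70.3 and 60.4 CPM in air (-0.93 ± 0.27, adjusted p = 0.0495, 0.208 without the 2 libraries). Without the 2 libraries 3 other members were called. Clock was higher (0.31, adjusted p = 0.0373), and Nr1d2, a repressor of the clock, was lower (-0.32, adjusted p = 0.0361). Arntl, an activator of the clock, was higher, at 7.11, 12.3 and 7.12 CPM at 24 h and 15.1, 11.5 and 13.6 CPM at 72 h (0.84, adjusted p = 0.0192; 0.115 with 9 libraries). Air libraries spread more than either ozone group for Cry2 and Tef, with the hour of death not given in the sources used here.

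Of the genes with at least 10 counts in each library of one time, 5 had 0 counts in all 3 libraries of the other. Gal3st4, a sulfotransferase and the only protein-coding gene of the 5, had 0 counts in all 24 h libraries and 16, 13 and 15 counts at 72 h, which is at least 14.1-fold higher with a floor of 3 counts over the group. It had 6, 0 and 21 counts in air. With 1 library left out, Gal3st4 was called only without air replicate 2 (adjusted p = 0.0233, and up to 0.138 in the others). The other 4 were processed pseudogenes, whose estimated counts may be shared with their parent genes. Gm2223, at 0 in all air and 24 h libraries, had 205, 183 and 208 counts at 72 h, at least 191-fold higher. Rab11b-ps2, likewise at 0 in those 6 libraries, had 67, 127 and 123 counts at 72 h, at least 101-fold higher. Gm15429 had 133, 0 and 0 counts in air and 0 in each 24 h library, against 242, 221 and 209 counts at 72 h, at least 215-fold higher. Gm6158 had 0 counts at 72 h and 297 to 807 in the other 6 libraries, at least 523-fold lower. Gm2223 and Gm6158 were called with each library left out. Rab11b-ps2 lost its call without 72 h replicate 2 only (adjusted p = 0.0503).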
